A study of Microtus ochrogaster with 40 samples.

Results

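Cadherins and protocadherins are cell surface proteins with repeated calcium-binding domains through which cells recognise and hold each other. They were followed here across cell classes of the prairie vole (Microtus ochrogaster) nucleus accumbens. Members were taken by name, as every listed gene called Cdh or Pcdh with a number, or Pcdha, Pcdhb or Pcdhg, which gave 61 of 19130 genes. They comprise 5 type I classical cadherins, 13 type II cadherins, 5 other cadherins, 4 delta-1, 5 delta-2 and 3 other protocadherins, and 26 clustered protocadherins. All 61 had at least 1 unique molecular identifier (UMI, the tag that counts 1 captured RNA molecule), and together they held 1206941 UMIs, or 0.376% of those kept.

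Classical cadherins bind like to like between neighbouring membranes and are tied to the actin skeleton by catenins, so that cells with the same cadherin tend to adhere. Type II cadherins and delta protocadherins are expressed in combinations by different neuron types and act in axon sorting and synapse formation. Clustered protocadherins are encoded in 3 neighbouring gene arrays, alpha, beta and gamma, and the mix of isoforms on a neuron lets its branches tell self from other. The nucleus accumbens is the ventral striatal region in which partner preference of this pair-bonding rodent has been studied most.

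The series holds single-nucleus RNA sequencing (10X Genomics droplets) of 40 animals, with 1 library from the separately dissected tissue of each animal. Animals had been housed for 16 days with an unfamiliar opposite-sex partner (mate) or an unfamiliar same-sex partner (peer). The groups were 11 females with a mate, 8 females with a peer, 11 males with a mate and 10 males with a peer. The labels give no age, batch or partner identity, and animals that may have shared a cage are counted as independent.

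After filtering, 177991 nuclei were kept, with 1767 to 7661 nuclei and 2914734 to 13065041 UMIs per animal. They formed 35 clusters, made without the 61 member genes so that the classes did not rest on the values compared. Of these clusters, 26 took a name from marker lists and are called X-like below, since the names are rebuilt and not the authors'. The 12 classes tested held between 1027 nuclei (cholinergic interneuron-like) and 32280 nuclei (glutamate neuron-like). Striatal identity was plain in the markers: the dopamine receptor gene DRD1A stood at 967 CPM (the gene's UMIs in the nuclei summed, divided by all their UMIs and given in the usual CPM unit) in D1 medium spiny neuron-like nuclei against 20.0 in D2 medium spiny neuron-like nuclei, and Adora2a at 12.8 against 963. The glutamate neuron-like class, which the accumbens itself largely lacks, made up 18.1% of nuclei and from 0.508% (male peer 5) to 44.7% (male mate 2) of an animal's nuclei. Whether it came from tissue beside the accumbens cannot be told from these data. The library of male mate 2 stood apart, with 6375 barcodes below 500 UMIs that were left out, and the tests of the named members by class, subtype and group were also run without it, except in the cholinergic-like class, which then had too few animals.

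The first question was in which classes each member is expressed. For this, UMIs were summed per animal and class, and each class was set against the mean of the others with the animal as a block, by edgeR's quasi-likelihood test. A member was called higher in a class at a Benjamini-Hochberg adjusted p under 0.05, over all genes tested, with a log2 fold change of at least 1. Of the 61 members, 44 passed the filter on low counts, among 10842 genes. Each of the 44 was called in at least 1 class and none in more than 6, and 8 were called in 1 class. The shares of all genes called in at least 1 class or in 1 class were not computed. Of 528 pairs of a member and a class 126 were called, beside 12.5% of the pairs over all genes, and 228 pairs with the adjusted p alone, beside 37.3%. A gene passes the filter partly through the class where it is high, so these counts describe the family and do not set it apart from other genes.

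Astrocyte-like and oligodendrocyte precursor-like nuclei had the most members called higher. In astrocyte-like nuclei 22 of 44 members were called higher, where 16.6% of all genes tested were, and in oligodendrocyte precursor-like nuclei 22 of 44, where 13.4% of all genes were. The median log2 fold change of the members was 0.96 in the astrocyte-like and 1.01 in the precursor-like class, against -0.02 and -0.03 for all genes. Clustered protocadherins gave 12 of the 22 calls in astrocyte-like and 9 of the 22 in precursor-like nuclei, so the rank of both classes rests largely on them. Of the 13 type II cadherins, 4 and 5 were called, with medians of -1.7 and 0.76. Mature oligodendrocyte-like nuclei had 6 of 44 (12.8% of all genes), microglia-like nuclei 1 of 44 (14.0%) and endothelial-like nuclei 5 of 44 (17.9%), with member medians of -0.89, -1.65 and -1.01. Among neurons, eccentric medium spiny neuron-like nuclei had 13 of 44 (10.7% of all genes), somatostatin interneuron-like 13 (10.6%), glutamate neuron-like 12 (11.9%), immature neuron-like 11 (11.5%), D2 spiny-like 8 (10.9%), cholinergic-like 8 (9.33%) and D1 spiny-like 5 (10.6%). The number of members at 10 CPM or more ran from 25 of 61 in microglia-like nuclei to 47 of 61 in oligodendrocyte precursor-like nuclei. The share of all genes at that level was not computed. These 2 classes held 3078486 and 4188976 UMIs, against 69617518 in D1 spiny-like nuclei, so 10 CPM rests on fewer UMIs in them.

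**Figure D1:**
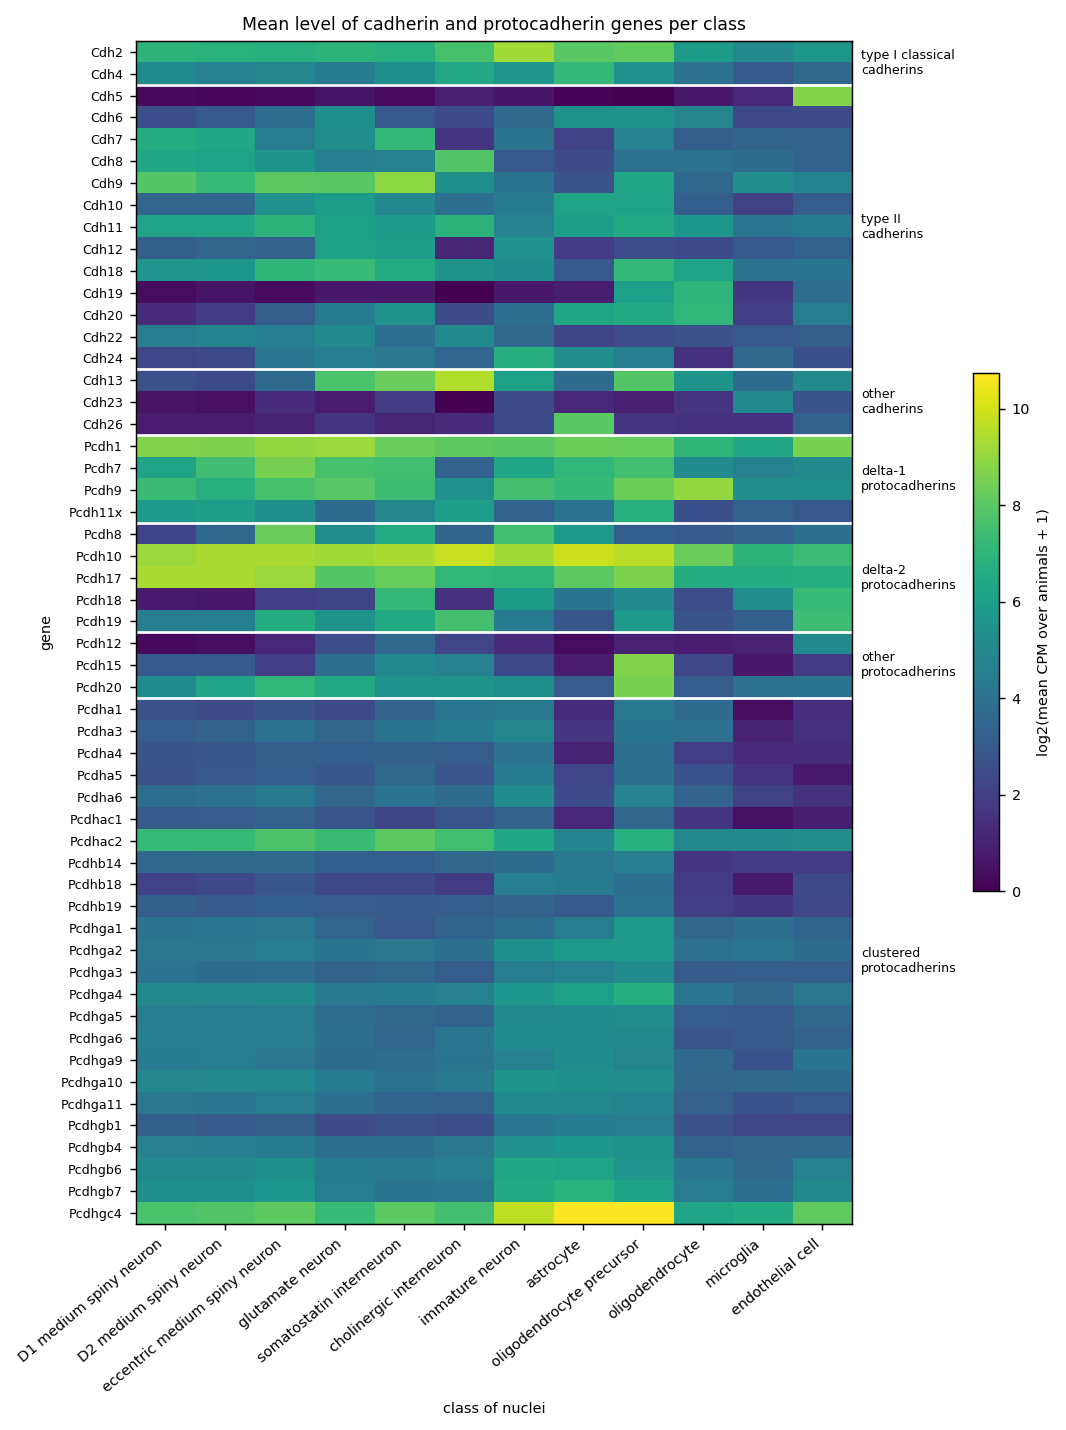
Mean level of the 54 members that reached 10 CPM in at least 1 class, as log2 of the mean CPM over animals plus 1, with genes in rows by family and the 12 classes in columns. Cdh5, Cdh26, Pcdh15 and Cdh19 are bright in few columns, while Pcdh1 and Pcdh10 are bright throughout. Most clustered protocadherins are brightest in the immature neuron, astrocyte or oligodendrocyte precursor column.

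Among type I classical cadherins, Cdh2 and Cdh4 were the members with enough UMIs to test. Cdh2 (N-cadherin, the main cadherin of neural progenitor junctions and synapses) averaged 599 CPM in immature neuron-like nuclei, 272 in oligodendrocyte precursor-like and 253 in astrocyte-like nuclei, and was called higher in these 3 classes. The immature neuron-like class held its own marker list at 4851 CPM, astrocyte markers at 1771 CPM and cycling cell markers at 1306 CPM, and the part of such cells or their RNA in its levels was not tested. Cdh2 lay between 103.8 and 122.8 CPM in D1, D2, eccentric spiny-like, glutamate-like and somatostatin-like nuclei and at 32.6 CPM in microglia-like nuclei. Cdh4 (R-cadherin) averaged 142 CPM in astrocyte-like and 87.6 CPM in cholinergic-like nuclei and was called in both.

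Vascular Cdh5 (VE-cadherin, the adherens junction cadherin of blood vessel lining) had the highest fold change of any named member. In endothelial-like nuclei it ranged from 152 CPM (female peer 1) over a median of 442 to 760 CPM (female mate 3), with a mean of 433 ± 180 CPM (SD, n = 28). In each of the 28 animals the endothelial-like class was the highest, and no other class averaged above 1.37 CPM. In oligodendrocyte precursor-like nuclei no Cdh5 UMI was found among 4188976, which allows 0.716 CPM, so the endothelial-like level was at least 604-fold higher than the limit set by 3 counts over that class. Pcdh12, an endothelial protocadherin, was too sparse to test and averaged 34.0 ± 27.1 CPM (SD, n = 28) there, with 12.0 CPM in somatostatin-like nuclei as the next level. The delta-2 genes Pcdh18 and Pcdh19 were also called in this class, at 156 ± 75.1 and 169 ± 78.4 CPM (SD, n = 28). Besides the endothelial list, at 8240 CPM, this class held astrocyte markers at 2656 CPM, pericyte and fibroblast markers at 2258 CPM and oligodendrocyte markers at 2174 CPM, and the part of such cells or their RNA in its levels was not tested. This bears on Cdh19, Cdh26 and Ctnna3, which were called here and are far higher in oligodendrocyte-like or astrocyte-like nuclei.

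Of the 13 type II cadherins, 7 were called in glutamate-like nuclei (11.9% of all genes) and 0 in microglia-like nuclei (14.0%). Eccentric spiny-like (10.7%), somatostatin-like (10.6%) and oligodendrocyte precursor-like nuclei (13.4%) had 5 each called. Cdh9, which acts at hippocampal mossy fibre synapses, averaged 476 ± 129 CPM (SD, n = 40) in somatostatin-like nuclei, from 133 (male peer 5) over a median of 468 to 727 CPM (male mate 7). Those nuclei were above each other class in 38 of 40 animals, but the class value rested on its cluster 21, led by Kcnc2 and Grik1, at 696 CPM. Clusters 23 and 27 averaged 110 and 126 CPM, and the nuclei led by the genes of cluster 21 took the parvalbumin name in the clustering that allowed members. Cdh9 was also called in eccentric spiny-like (261 CPM), glutamate-like (250 CPM), D1 spiny-like (236 CPM) and D2 spiny-like nuclei (152 CPM), and it averaged 5.71 CPM in astrocyte-like nuclei. Cdh7 was called in somatostatin-like (140 ± 47.7 CPM), D1 spiny-like (98.2 ± 31.6 CPM), D2 spiny-like (86.5 ± 21.7 CPM) and glutamate-like nuclei (38.4 ± 12.0 CPM; SD, n = 40 each). Cdh8, a cadherin found at synapses, averaged 227 ± 63.5 CPM (SD, n = 26) in cholinergic-like nuclei, where it was the highest of all classes in 26 of 26 animals. Its next levels were 85.8 ± 22.0 CPM in D1 and 74.2 ± 18.7 CPM in D2 spiny-like nuclei, both called, with log2 fold changes of 2.06 (SE 0.06) and 1.87 (SE 0.06).

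Cdh12 was called in glutamate-like nuclei at 67.0 ± 19.6 CPM (SD, n = 40), with a log2 fold change of 2.93 (SE 0.07), and also in somatostatin-like nuclei at 60.3 CPM and immature neuron-like nuclei at 42.7 CPM. The remaining 9 classes averaged at most 10.6 CPM. Cdh18 had its highest levels in glutamate-like (152 CPM), oligodendrocyte precursor-like (139 CPM) and eccentric spiny-like nuclei (131 CPM) and was called in these 3 classes and in somatostatin-like and oligodendrocyte-like nuclei. Cdh24 averaged 103 ± 30.4 CPM (SD, n = 38) in immature neuron-like nuclei, a class that is led by Igfbpl1 and by cell-cycle genes, and exceeded every other class in 37 of 38 animals.

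Of the type II members called in both oligodendrocyte classes, Cdh19 was low in the other classes, although also called in endothelial-like nuclei on 9 UMIs, and Cdh18, Cdh20 and Cdh6 were also called elsewhere. Cdh19, known from Schwann cell precursors, averaged 124 ± 42.2 CPM (SD, n = 40) in oligodendrocyte-like nuclei, from 17.4 (male mate 2) over a median of 135 to 226 CPM (female peer 3). It averaged 64.9 ± 49.2 CPM (SD, n = 39) in precursor-like nuclei and 13.5 CPM in endothelial-like nuclei, where 9 UMIs gave a median of 0 and 310.4 CPM in male mate 7, and in the other 9 classes at most 2.37 CPM. No Cdh19 UMI was found among 2050487 in cholinergic-like nuclei, which allows 1.46 CPM over that class and makes the oligodendrocyte-like level at least 84.5-fold higher. Cdh20 was called in oligodendrocyte-like (135 ± 46.7 CPM, n = 40), precursor-like (93.01 CPM), astrocyte-like (81.7 ± 21.7 CPM, n = 39) and somatostatin-like nuclei (44.9 CPM; errors are SD), and averaged 1.60 and 2.77 CPM in D1 and D2 spiny-like nuclei. Cdh6 was likewise called in both stages of the lineage, at 28.3 CPM in oligodendrocyte-like and 43.7 CPM in precursor-like nuclei, and also in astrocyte-like (42.8 CPM) and glutamate-like nuclei (39.6 CPM).

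Cdh13 (T-cadherin, anchored to the membrane by a lipid and without the catenin-binding tail) was highest in cholinergic interneuron-like nuclei. It averaged 722 ± 175 CPM (SD, n = 26) there, from 399 (male peer 3) over a median of 744 to 1072 CPM (female peer 3), and this class was the highest in 26 of 26 animals. Somatostatin-like (308 CPM), oligodendrocyte precursor-like (235 CPM) and glutamate-like nuclei (206 CPM) were also called. The 3 spiny classes were among the lowest, at 5.32 CPM (D1), 4.25 CPM (D2) and 12.0 CPM (eccentric). Cdh26, a cadherin outside the classical types, had a mean of 250 ± 128 CPM (SD, n = 39) in astrocyte-like nuclei. The next class, endothelial-like, averaged 9.04 CPM, and the astrocyte-like level was the highest in 39 of 39 animals, with a log2 fold change of 7.04 (SE 0.07). Cdh23, the hair cell tip-link cadherin, was too sparse to test and averaged 33.6 ± 26.4 CPM (SD, n = 39) in microglia-like nuclei and at most 5.66 CPM in the others.

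Among delta-1 protocadherins, Pcdh1 averaged from 86.7 CPM in microglia-like to 562 CPM in glutamate-like nuclei, the class in which it was called. Pcdh9 averaged 503 ± 127 CPM (SD, n = 40) in oligodendrocyte-like nuclei and 315 CPM in their precursor-like class, and was called in both. Pcdh7 was called in 6 classes and was highest in eccentric spiny-like nuclei, at 366 ± 70.5 CPM (SD, n = 40). Pcdh11x averaged 107 CPM in precursor-like nuclei and 61.5, 62.1 and 54.8 CPM in cholinergic-like, D2 and D1 spiny-like nuclei, against 12.5 CPM in glutamate-like nuclei.

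Among delta-2 protocadherins, Pcdh17, a regulator of synapse assembly in circuits between cortex and basal ganglia, averaged 668 CPM in D1 and 658 ± 97.4 CPM (SD, n = 40) in D2 spiny-like nuclei and 558 CPM in eccentric spiny-like nuclei, and was called in these 3 classes. Pcdh8 (arcadlin, a protocadherin induced by neuronal activity) averaged 309 ± 62.7 CPM (SD, n = 40) in eccentric spiny-like nuclei and 179 ± 55.9 CPM (SD, n = 38) in immature neuron-like nuclei, against 3.498 CPM in D1 spiny-like nuclei. Pcdh19, whose human copy on the X chromosome underlies an epilepsy of females, averaged 187 ± 82.4 CPM (SD, n = 26) in cholinergic-like nuclei and 169 CPM in endothelial-like nuclei. Pcdh18 averaged 142 ± 62.5 CPM (SD, n = 40) in somatostatin-like nuclei, where each of 40 animals lay above the mean of its other classes, and 56.4 CPM in immature neuron-like nuclei. The somatostatin-like level came mostly from cluster 27, at 498 CPM, while clusters 21 and 23 averaged 47.1 and 49.6 CPM, below the immature neuron-like and endothelial-like (156 CPM) levels. Pcdh18 was also the 1 member called in microglia-like nuclei, at 38.7 ± 38.8 CPM (SD, n = 39), although 19 of 39 animals lay above the mean of their other classes. That class, shallow at a median of 608 UMIs, held markers of differentiating oligodendrocytes at 1295 CPM, of astrocytes at 764.5 CPM and of D2 spiny neurons at 490 CPM, beside 29650 CPM of microglia markers, and the part of RNA from other nuclei in its member levels was not tested. Pcdh10 was broad, from 121 CPM in microglia-like to 907 CPM in cholinergic-like and 927 CPM in astrocyte-like nuclei. It was called in the astrocyte-like class alone, although the cholinergic-like level was close.

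Pcdh15, the partner of Cdh23 in the hair cell tip link, marked oligodendrocyte precursor-like nuclei. It averaged 411 ± 83.5 CPM (SD, n = 39) there, from 220 (male mate 10) over a median of 394 to 669 CPM (male peer 1), and 31.0 CPM in the next class, somatostatin-like. Precursor-like nuclei were the highest in 39 of 39 animals, with a log2 fold change of 6.27 (SE 0.09). Pcdh20 had the same highest class, at 375 ± 78.3 CPM (SD, n = 39), also in 39 of 39 animals, but with 134 CPM in eccentric spiny-like nuclei as its next level. Over the named members of this comparison, the highest adjusted p by edgeR with Benjamini-Hochberg adjustment was 5.4e-22, for Pcdh18 in microglia-like nuclei.

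Clustered protocadherins had their highest summed levels in oligodendrocyte precursor-like, astrocyte-like and immature neuron-like nuclei. Of the 16 tested, 12 were called in astrocyte-like (16.6% of all genes), 9 in oligodendrocyte precursor-like (13.4%) and 6 in immature neuron-like nuclei (11.5%). Eccentric spiny-like nuclei had 2 (10.7%), somatostatin-like 2 (10.6%), cholinergic-like 1 (9.33%) and oligodendrocyte-like 1 (12.8%). In D1 spiny-like, D2 spiny-like, glutamate-like, endothelial-like and microglia-like nuclei 0 were called, where 10.6% to 17.9% of all genes were. All 12 called in astrocyte-like nuclei were gamma genes, but the tested genes were all gamma apart from Pcdha3, Pcdha6 and Pcdhac2, and no beta gene was tested. Of the untested genes, Pcdha4 had its lowest level there, at 1.08 CPM, and Pcdhb1 had 0 UMIs. Pcdhb18 and Pcdhb14 averaged 20.6 and 18.4 CPM there, the second-highest class of each. Pcdhgc4, the gamma isoform known to be needed for neuron survival, averaged 1626 ± 238 CPM in astrocyte-like and 1701 CPM in precursor-like nuclei (SD, n = 39) and 835 CPM in immature neuron-like nuclei, against 150.5 CPM in glutamate-like nuclei. Pcdhac2, the alpha isoform needed for the spacing of serotonin axons, ran the other way, with 267 CPM in somatostatin-like and 214 CPM in eccentric spiny-like nuclei, both called, and 27.7 CPM in astrocyte-like nuclei. The summed level of the 26 genes was 2566 CPM in precursor-like, 2329 CPM in astrocyte-like and 1645 CPM in immature neuron-like nuclei, and from 271.5 (microglia-like) to 897.5 CPM (eccentric spiny-like) in the other 9 classes. Pcdhgc4 carried much of these sums: without it they were 864 CPM in precursor-like, 810 CPM in immature neuron-like and 703 CPM in astrocyte-like nuclei, against 632.5 CPM in eccentric spiny-like nuclei and 178 to 533 CPM in the other 8 classes. Isoforms of the alpha array, and those of the gamma array, share their last exons, and droplet libraries read the ends of transcripts. The isoform from which a UMI of these 2 arrays came is therefore uncertain. Pcdhgc4 held 98396 and Pcdhac2 49691 of the 262734 UMIs of these genes.

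The 17 members that were not tested were Cdh1, Cdh3, Cdh15, Cdh16, Cdh17, Cdh23, Pcdh12, Pcdha1, Pcdha4, Pcdha5, Pcdhac1, Pcdhb1, Pcdhb13, Pcdhb14, Pcdhb18, Pcdhb19 and Pcdhgb1. Epithelial Cdh1 (E-cadherin) and Cdh3 (P-cadherin), muscle Cdh15 and kidney and gut Cdh16 and Cdh17 averaged at most 8.38, 4.11, 2.55, 0.370 and 0.539 CPM in any class. Together with Pcdhb1 and Pcdhb13 these were the 7 members below 10 CPM in every class.

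The second question was whether the spiny neuron classes differ from each other. D1 and D2 spiny-like nuclei, which carry the direct and indirect output of the striatum, differed in few members. Of 42 tested, 3 were called, all lower in D1, where 1.41% of 10230 genes were called in either direction. Pcdh7 ranged from 33.2 (male peer 8) over a median of 61.6 to 156 CPM (male peer 5) in D1 and from 101 (male mate 3) over 178 to 284 CPM (male mate 1) in D2 spiny-like nuclei. Its ranges overlapped, but D2 was the higher class in 40 of 40 animals, and the log2 difference of D1 minus D2 was -1.22 (SE 0.05; edgeR, Benjamini-Hochberg adjusted p = 4.11e-42). Within D2, Pcdh7 averaged 417 CPM in cluster 12 (5276 of 30643 nuclei) and 130 and 114 CPM in clusters 3 and 5, against 71.8 CPM in D1, so the larger D2 clusters lay less than 1 log2 unit above D1. Pcdh20 averaged 35.1 ± 18.3 CPM in D1 and 77.1 ± 24.8 CPM in D2 (SD, n = 40), with D2 higher in 40 of 40 animals and a log2 difference of -1.09 (SE 0.07). Its D2 level likewise differed between subtypes, at 228 CPM in cluster 12 and 39.6 and 47.7 CPM in clusters 3 and 5, near the D1 level. Pcdh8 averaged 3.498 ± 2.76 CPM in D1 and 11.3 ± 7.05 CPM in D2 (SD, n = 40), with D2 higher in 37 of 40 animals and a log2 difference of -1.51 (SE 0.12). Without the demand on size, 19 of 42 members passed the adjusted p, 7 higher and 12 lower in D1, where 30.5% of all genes passed. Among these, Cdh9 (235.5 against 152.1 CPM) and Pcdh9 (158.1 against 104.9 CPM) were higher in D1 in 40 of 40 animals, with log2 differences of 0.62 (SE 0.03) and 0.58 (SE 0.03).

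Eccentric spiny-like nuclei differed in more members. This class, named by Foxp2, Otof and Tshz1, held its own marker list at 1363 CPM, the D1 list at 3196 CPM (DRD1A 827 CPM) and the D2 list at 4131 CPM, of which Penk gave 3741 CPM, while DRD2 was at 8.42 CPM. Of 44 members tested, 9 were called higher and 1 lower than the mean of D1 and D2, where 6.80% of 10211 genes were called in either direction. The median log2 difference was 0.24 over the members and 0.00 over all genes, and with the adjusted p alone 33 of 44 members passed, beside 64.6% of all genes. Without the filter on low counts all 61 members were tested and 16 were called in place of these 10, 6 of them too sparse for the filter, where 9.03% of 17337 genes were called. Pcdh8 ranged from 124 (female mate 1) over a median of 304 to 435 CPM (female mate 8) in eccentric spiny-like nuclei, and no animal exceeded 12.9 CPM in D1 or 32.4 CPM in D2. The class therefore did not overlap with the others for Pcdh8, and the log2 difference was 5.64 (SE 0.06; edgeR, Benjamini-Hochberg adjusted p = 4.29e-107).

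Pcdh19 averaged 98.3 ± 30.8 CPM in eccentric spiny-like nuclei against 23.2 ± 7.86 in D1 and 23.5 ± 7.71 CPM in D2 (SD, n = 40), a log2 difference of 2.05 (SE 0.07). Cdh10 averaged 42.1 ± 13.8 CPM against 10.6 ± 4.04 and 10.6 ± 3.01 CPM, a log2 difference of 2.00 (SE 0.07), and Cdh18 131 ± 27.3 CPM against 48.01 ± 12.9 and 48.2 ± 12.7 CPM, a log2 difference of 1.49 (SE 0.04). Each of these 3 genes was higher in the eccentric class in 40 of 40 animals, while D1 and D2 lay close together. Pcdh7 was also higher in the eccentric class in 40 of 40 animals (log2 difference 1.68, SE 0.05), with D1 and D2 themselves apart. D2 cluster 12, at 417 CPM of Pcdh7 and 228 CPM of Pcdh20, averaged above the eccentric class, at 366 and 134 CPM, so for these genes the difference is from D2 as a whole and not from each of its subtypes. Cdh7 was the member called lower, at 22.0 ± 8.77 CPM against 98.2 ± 31.6 and 86.5 ± 21.7 CPM (SD, n = 40), a log2 difference of -2.10 (SE 0.06), and was lower in 40 of 40 animals. The other members called higher were Cdh24, Pcdh20, Cdh6 and Cdh13.

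**Figure D2:**
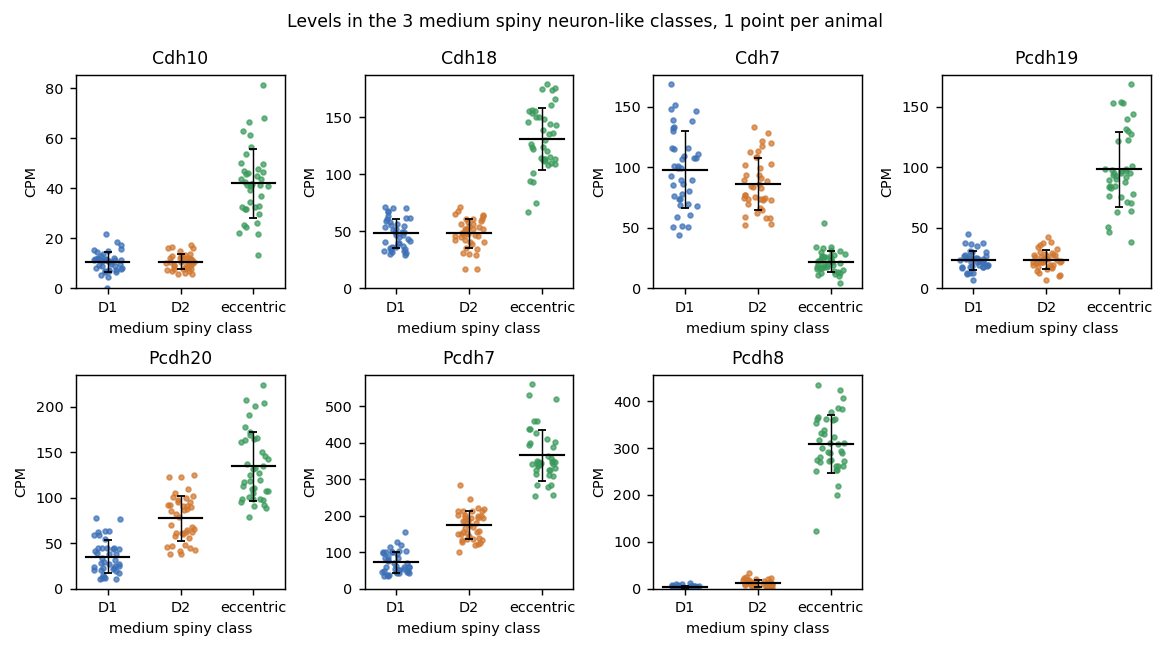
Level in CPM of the 7 members named in the spiny neuron comparisons, with 1 point per animal (n = 40) in the D1, D2 and eccentric medium spiny neuron-like classes, and bars for the mean and SD over animals. Pcdh8 in the eccentric class lies above all D1 and D2 points, the means of Pcdh7 and Pcdh20 step up from D1 over D2 to eccentric, and Cdh7 runs in the opposite direction.

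The third question concerned subtypes, the clusters that share a class name. Each cluster was set against the mean of the other clusters of its class by the same test, and 34 of 417 pairs of a member and a cluster were called, over 5 classes, where 3.11% of the pairs over all genes were. With the adjusted p alone, 127 of 417 member pairs passed, beside 30.3% over all genes. The 3 D1 clusters had 0 of 99 pairs called, where 0.412% of all pairs of a gene and a cluster were (edgeR; 37 pairs had an unadjusted p under 0.05). D2 clusters had 4 of 87 pairs called (1.48% of all pairs), eccentric clusters 6 of 38 (2.63%), glutamate-like clusters 19 of 145 (4.50%) and somatostatin-like clusters 5 of 48 (9.16%).

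Within the D2 spiny-like class, cluster 12, led by Cpne7 and Gpr6, was set apart by Pcdh20 and Pcdh7. Pcdh20 ranged there from 91.7 over a median of 225 to 362 CPM, with a mean of 228 ± 67.4 CPM (SD, n = 40), and averaged 39.6 CPM in cluster 3, led by Adora2a and Gpr52, and 47.7 CPM in cluster 5, led by Nts and Penk. The highest animals of those clusters reached 94.0 and 92.3 CPM, so that the ranges touched at the edge, and the log2 difference was 2.44 (SE 0.06). Pcdh7 averaged 417 ± 90.1 CPM (SD, n = 40) in cluster 12 against 130 and 114 CPM, a log2 difference of 1.81 (SE 0.05). Cdh4 had the opposite pattern, with 29.9 CPM in both clusters 3 and 5 and 5.17 ± 8.10 CPM (SD, n = 40) in cluster 12.

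The 2 eccentric clusters divided 5 members from 1. In cluster 11, led by Col14a1 and Shisa8, Pcdh8 averaged 589 ± 103 CPM against 211 ± 60.1 CPM in cluster 6, led by Foxp2 and Otof (SD, n = 40), a log2 difference of 1.504 (SE 0.05). The lowest animal of cluster 11 had 338 CPM and the highest of cluster 6 had 343.5 CPM, an overlap confined to that edge. Cdh10 (81.3 against 28.5 CPM) and Pcdh19 (189 against 65.7 CPM) were also called in cluster 11, each with a log2 difference of 1.45 (SE 0.09), as were Pcdh9 and Pcdh11x. Pcdh7 was called in cluster 6, at 435 ± 84.5 CPM (SD, n = 40).

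Among glutamate-like clusters, Cdh24 averaged 68.5 ± 34.4 CPM (SD, n = 39) in cluster 10, led by Rxfp2 and Col5a1, and 8.29 to 12.0 CPM in the other 4, a log2 difference of 2.83 (SE 0.12). Pcdh15 was called in cluster 17, led by Nr4a2 and Slc26a4, at 42.5 ± 16.8 CPM (SD, n = 38), a log2 difference of 2.36 (SE 0.12). Pcdh8 was called in cluster 7, led by Ndst4 and SLC30A3, at 68.1 ± 31.6 CPM (SD, n = 39), and in cluster 8, at 43.2 CPM, against 6.58 and 5.66 CPM in clusters 10 and 17. Cluster 18, in which Cdh4 and Cdh7 were called, drew 63.1% of its nuclei from 1 library.

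Among the named subtype differences, the largest was in the somatostatin-like class. Pcdh18 averaged 498 ± 120 CPM (SD, n = 28) in cluster 27, led by Npy and Nos1, from 312 over a median of 493 to 675 CPM, and 47.1 and 49.6 CPM in clusters 21 and 23. No animal of the latter exceeded 126 CPM, so the ranges were apart, and the log2 difference was 3.36 (SE 0.12). Cdh11 was called in the same cluster, at 174 ± 58.6 CPM (SD, n = 28) against 27.6 and 19.1 CPM. Cdh9 averaged 696 ± 170 CPM (SD, n = 39) in cluster 21, led by Kcnc2 and Grik1, against 110 CPM in the Pvalb-led cluster 23 (highest 725 CPM, male mate 2) and 126 CPM in cluster 27, a log2 difference of 2.53 (SE 0.09). Over the named members of the subtypes, the highest adjusted p (edgeR, Benjamini-Hochberg) was 2.77e-27. The somatostatin-like class held parvalbumin interneuron markers at 1040 CPM beside 13400 CPM of its own list, and Pvalb was among the leading genes of clusters 21 and 23. Its name depended on the clustering, since 50.8% of its nuclei kept the name when members were allowed among the clustering genes, against 93.05% to 99.96% of each other tested class. In that clustering, 4991 nuclei led by Grik1 and Kcnc2, as cluster 21 is here, took the name parvalbumin interneuron-like.

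**Figure D3:**
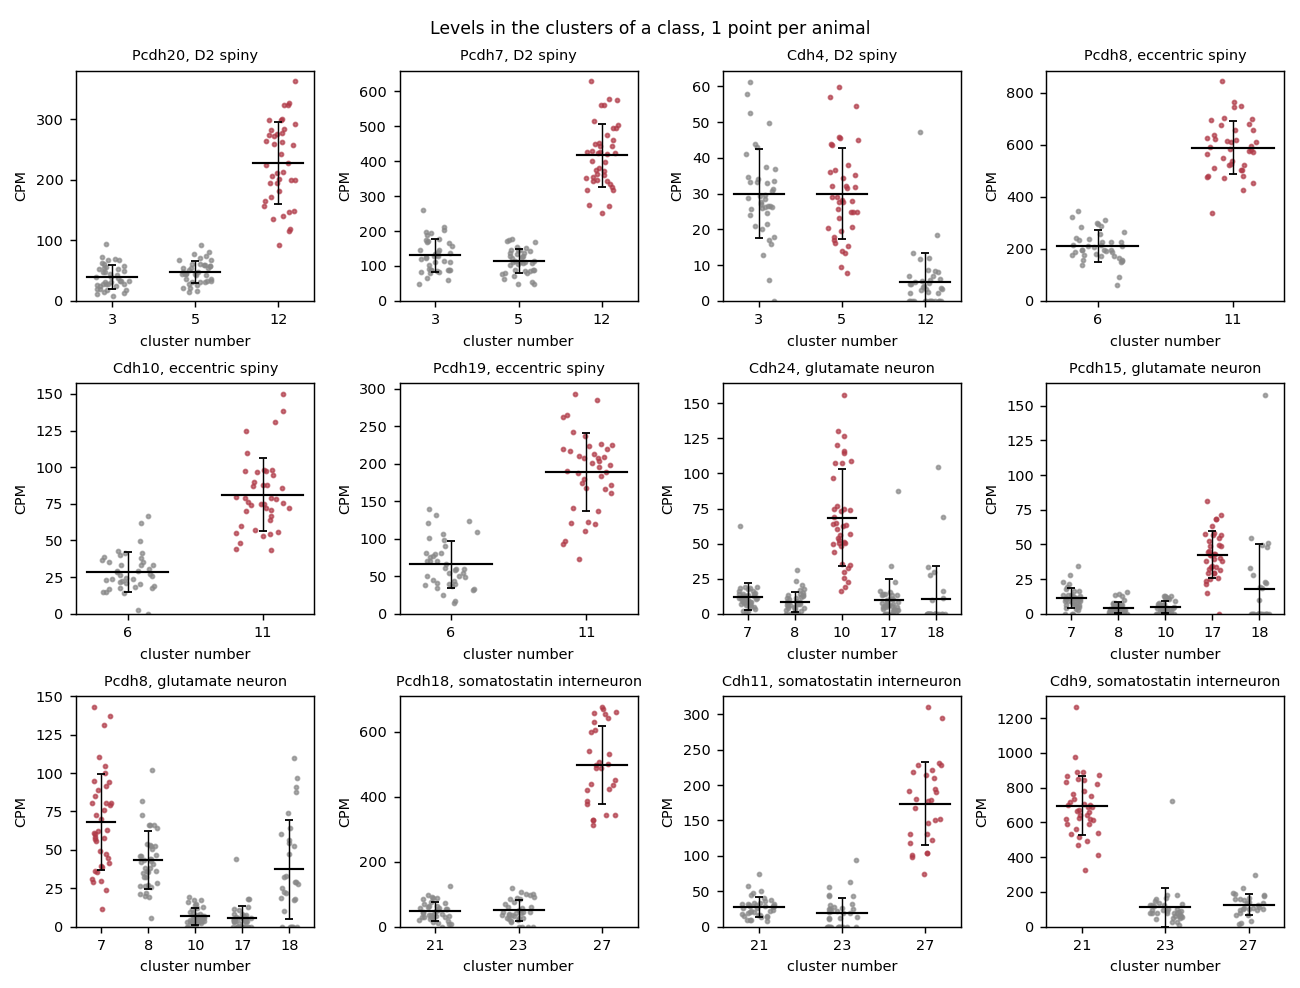
Level in CPM of 12 pairs of a member and a class in each cluster of that class, with 1 point per animal that had at least 20 nuclei of the cluster and bars for the mean and SD; red marks the cluster named in the text. Pcdh18 in cluster 27 of the somatostatin-like class lies above all points of clusters 21 and 23, whereas Pcdh20 and Pcdh8 in their red clusters touch the range of a neighbour.

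Genes that work with cadherins were counted from 3 further lists. Catenins and relatives, which link cadherins to actin, were called higher in 23 of 120 pairs of a gene and a class (10 of the 11 listed genes tested), other cadherin superfamily genes in 45 of 156 (13 genes) and nectins with afadin, another adhesion system of the same junctions, in 14 of 48 (4 genes), beside 12.5% of the pairs over all genes. Endothelial-like nuclei, the class of Cdh5, had Ctnna1 (log2 fold change 3.38, SE 0.08), Ctnna3, Ctnnb1, Ctnnd1 and Jup called. Oligodendrocyte-like nuclei had Ctnna3 (6.67, SE 0.10), Jup, Ctnna1, Ctnnal1 and Pkp4. In D1 against D2 none of 9 catenins, 9 superfamily genes or 2 nectin genes was called, where 1.41% of all genes were. In eccentric against both, 1 of 8 catenins, 4 of 12 superfamily genes and 0 of 2 nectin genes were called, beside 6.80% of all genes. These were Jup (1.17, SE 0.06), Clstn2 (3.24, SE 0.11), Fat4, Celsr1 and Fat1, all higher.

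The fourth question was whether members differ between animals housed with a mate and with a peer. No member was called. Within the 12 classes, 295 pairs of a member and a class were tested, from 55 members, and edgeR's quasi-likelihood test with Benjamini-Hochberg adjustment called 0 of them, where 0% of 77706 pairs of any gene and a class were called. DESeq2 also called 0. At an unadjusted p under 0.05 there were 24 member pairs (8.14%), against 5.22% of all pairs. A p that misses the threshold does not show that the groups were alike, and the size of each difference is given with its error.

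The lowest p belonged to Pcdhga4 in astrocyte-like nuclei. Its level ran from 47.3 over a median of 74.0 to 102 CPM in 21 mate-housed animals and from 27.5 over 53.8 to 79.1 CPM in 18 peer-housed animals. The ranges overlapped widely, and the log2 difference of mate minus peer was 0.41 (SE 0.12; edgeR, Benjamini-Hochberg adjusted p = 0.780). Cdh13 in D1 spiny-like nuclei averaged 4.22 ± 1.73 CPM with a mate (n = 22) and 6.65 ± 2.86 CPM with a peer (n = 18; errors are SD), a log2 difference of -0.58 (SE 0.18; edgeR adjusted p = 0.975). Pcdh9 in D1 spiny-like nuclei averaged 171 ± 33.3 CPM (n = 22) and 142 ± 26.4 CPM (n = 18; errors are SD), a log2 difference of 0.23 (SE 0.08; edgeR adjusted p = 0.975). Over all nuclei of an animal, 0 of 57 members were called in 13692 genes (0% called), and 5 had an unadjusted p under 0.05 (8.77%, against 7.02% of all genes). In such sums, fewer nuclei of a type and less RNA per nucleus cannot be told apart. The members with the lowest p there were Pcdhac1 (log2 difference 0.41, SE 0.16), Pcdh9 (0.18, SE 0.07) and Cdh13 (-0.30, SE 0.14), none called (edgeR, Benjamini-Hochberg adjusted p of at most 0.698).

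Females and males were compared next, and again no member was called. Over the same 295 pairs edgeR called 0, and 0.0219% of the 77706 gene and class pairs were called, which is 17 pairs, none of them a member. DESeq2 called 0 members. At an unadjusted p under 0.05 there were 20 member pairs (6.78%, against 5.10% of all pairs). Pcdhga6 in D2 spiny-like nuclei had the lowest p, with 20.1 ± 5.55 CPM in 19 females and 27.1 ± 4.27 CPM in 21 males (SD), a log2 difference of female minus male of -0.41 (SE 0.10; edgeR, Benjamini-Hochberg adjusted p = 0.214). Of the 19 females, 17 lay below the male mean. Cdh20 in astrocyte-like nuclei averaged 70.7 ± 15.7 CPM in 19 females and 92.1 ± 21.8 CPM in 20 males (SD), a log2 difference of -0.34 (SE 0.11; edgeR adjusted p = 0.792), and Pcdh10 in immature neuron-like nuclei 670 ± 193 CPM in 19 females and 546 ± 146 CPM in 19 males (SD), a log2 difference of 0.32 (SE 0.12; edgeR adjusted p = 1.00).

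Pcdh11x and Pcdh19 are X-linked in other mammals and were therefore examined whatever their p. Pcdh11x in D1 spiny-like nuclei averaged 49.6 ± 8.79 CPM in 19 females and 59.4 ± 17.2 CPM in 21 males (SD), a log2 difference of -0.23 (SE 0.09; edgeR, Benjamini-Hochberg adjusted p = 0.939), and its differences in the other 5 classes tested lay between -0.28 and 0.09. Pcdh19 had log2 differences from -0.21 (SE 0.13) in eccentric spiny-like to 0.34 (SE 0.19) in cholinergic-like nuclei, of either sign. Over all nuclei 0 of 57 members were called, where 0.0219% of 13692 genes were (3 genes), 6 members had an unadjusted p under 0.05 (10.5%, against 8.53% of all genes), and DESeq2 called 0. The lowest p values there were for Pcdhga2 (0.35, SE 0.11), Cdh7 (-0.26, SE 0.09) and Cdh9 (-0.15, SE 0.06), none called (edgeR, Benjamini-Hochberg adjusted p of at most 0.540).

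The pairing difference was then compared between the sexes. Of the 295 pairs, edgeR and DESeq2 each called 0, as of all 77706 pairs (0%), and 10 had an unadjusted p under 0.05 (3.39%, against 2.70% of all pairs). Pcdh9 held 2 of the 3 lowest p values. In astrocyte-like nuclei it averaged 165 ± 28.0 CPM in females with a mate (n = 11), 115 ± 16.2 in females with a peer (n = 8), 143 ± 29.0 in males with a mate (n = 10) and 157 ± 53.6 CPM in males with a peer (n = 10; errors are SD). Mate minus peer in females, less the same difference in males, was 0.61 on the log2 scale (SE 0.19; edgeR, Benjamini-Hochberg adjusted p = 1.00). In oligodendrocyte precursor-like nuclei the same quantity was 0.59 (SE 0.26), and for Pcdha3 in D1 spiny-like nuclei it was -0.76 (SE 0.29), neither called. None of the catenin, superfamily or nectin genes was called in any of these comparisons of groups within classes (edgeR).

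**Figure D4:**
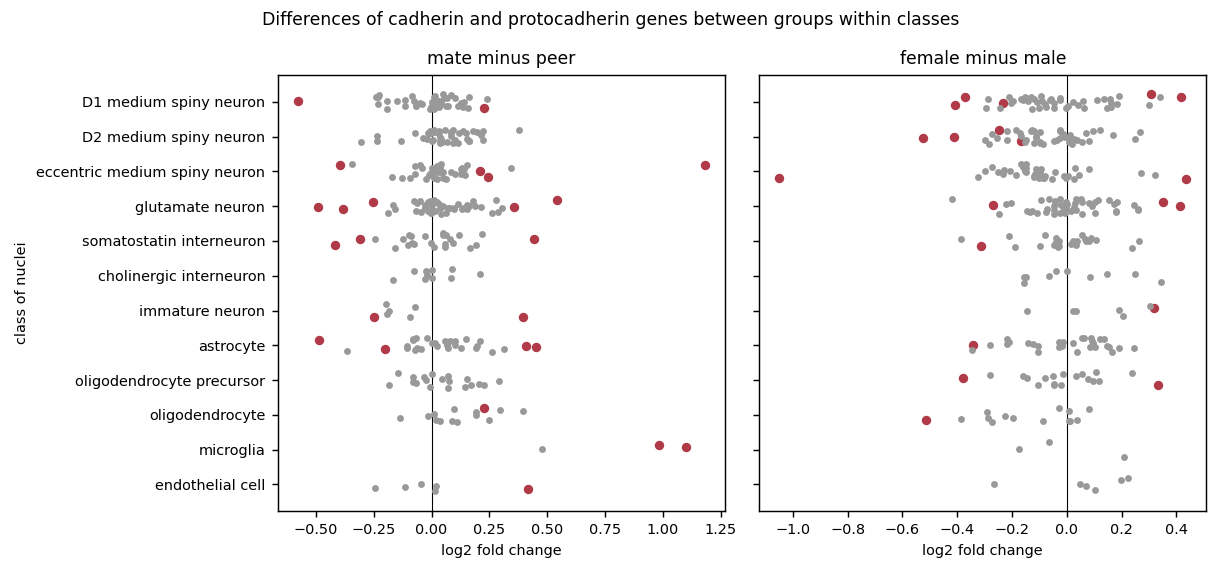
Log2 fold change of each tested member in each class, for mate minus peer (left) and female minus male (right), with 1 point per member and red for an unadjusted p under 0.05. No point passed the adjusted threshold, and red points lie on both sides of 0. Wide differences include Cdh12 in eccentric spiny-like nuclei (1.18 and -1.05), where it is sparse, and for mate minus peer Pcdh10 in microglia-like nuclei.

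Last, the spread between animals was described without regard to group. Among the 43 members at 10 CPM or more over all nuclei, the SD over animals of log2(CPM + 1) ran from 0.14 over a median of 0.29 to 0.92. Cdh26 had the largest, with 0.795 (male mate 2) over a median of 13.2 to 34.8 CPM (female peer 8). Within astrocyte-like nuclei it ran from 41.0 (male mate 10) over 252 to 617 CPM (female peer 1), an SD of 0.85. The group means there were 229 ± 72.2 CPM in females with a mate (n = 11), 334 ± 188 in females with a peer (n = 8), 198 ± 120 in males with a mate (n = 10) and 257 ± 106 CPM in males with a peer (n = 10; errors are SD). Both mate groups lay below the peer group of their sex, but the ranges overlapped and the log2 difference of mate minus peer was -0.49 (SE 0.21; edgeR, Benjamini-Hochberg adjusted p = 0.860).

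The next members by spread were Cdh12 (SD 0.53), Cdh13 (0.50), Pcdhga1 (0.44) and Pcdhga2 (0.38). For these 5 members, the level over all nuclei was set against the share of nuclei of the class with the largest part of their UMIs, over 40 animals. That part was 86.3% for Cdh26 (astrocyte-like), 63.0% for Cdh12 and 60.8% for Cdh13 (glutamate-like), but 24.2% for Pcdhga1 (D1 spiny-like) and 20.6% for Pcdhga2 (glutamate-like). Since the level over all nuclei is made up of class levels weighted by class shares, a positive relation was largely built in where a class holds most of a member's UMIs, and r and rho are given as a description. Cdh12 ran from 6.64 (female mate 3) to 40.5 CPM (male peer 1) and went with the share of glutamate-like nuclei, with r = 0.633 and rho = 0.729, and r = 0.707 without the 2 animals farthest from the median share, male mate 2 and male peer 5. Cdh13 did likewise, with r = 0.717 and rho = 0.736 and r = 0.693 without the same 2 animals. For Cdh26 and the astrocyte-like share r was 0.434 and rho 0.341, and r was 0.267 without male mate 2 and female peer 4. For Pcdhga1 r was 0.125 and rho 0.147, and for Pcdhga2 r was -0.311 and rho -0.204, with r = -0.110 for Pcdhga2 without male mate 2 and male peer 5.

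**Figure D5:**
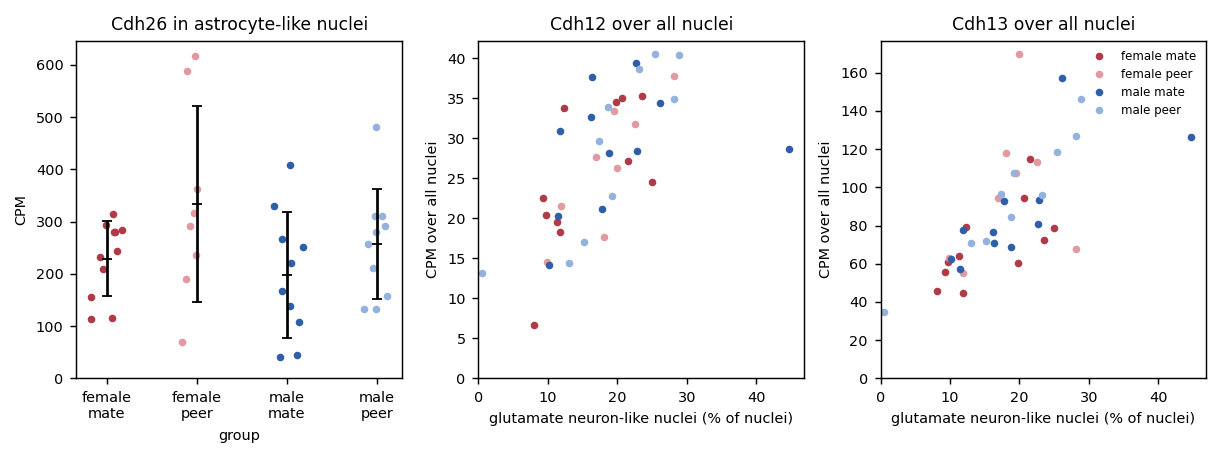
Left, Cdh26 in astrocyte-like nuclei by group, 1 point per animal (n = 39) with mean and SD in CPM; middle and right, Cdh12 and Cdh13 over all nuclei in CPM against the percentage of glutamate neuron-like nuclei, 1 point per animal (n = 40). Cdh26 spreads from 41.0 to 617 CPM with overlapping groups, and Cdh12 and Cdh13 climb with the share, male mate 2 being the isolated point at 44.7%.

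Variation between animals was also set against the level of each gene. The biological coefficient of variation estimated by edgeR was divided by that of genes of the same level in the class, over 352 pairs of a member and a class or all nuclei. The median ratio was 1.06, and 11 pairs exceeded 2, a count for which the share over all genes was not computed. Cdh12 in eccentric spiny-like nuclei had the highest, 3.21 (0.797 against 0.249), with levels from 0 (male mate 2) over a median of 4.52 to 43.7 CPM (male mate 4). Pcdh8 in astrocyte-like nuclei followed with 3.13, from 4.96 (male peer 5) over 44.1 to 144 CPM (male peer 8), then Pcdh20 in D1 spiny-like nuclei with 2.65, Cdh19 in oligodendrocyte precursor-like nuclei with 2.59 and Cdh26 in astrocyte-like nuclei with 2.53.

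Levels of a member in D1 and in D2 spiny-like nuclei of the same animal were correlated to about the degree seen over all genes. Over 33 members and 40 animals, r of log2 levels had a median of 0.614 and ran from -0.111 to 0.920, and 24 were positive with an adjusted p under 0.05 (permutation test, Benjamini-Hochberg over the 33), a count for which the share over all genes was not computed. By Spearman's rho 28 passed. Part of the low end rested on few animals, as seen without the 2 animals farthest from the median D1 level of each gene. Without them r rose from -0.111 to 0.322 for Pcdhga9 and from 0.107 to 0.602 for Pcdhga1. It also rose from 0.221 to 0.655 for Cdh10 and from 0.228 to 0.633 for Pcdhgb6. For Pcdhga11 it stayed low, at 0.0191 and 0.0347. It fell from 0.2385 to 0.0716 for Pcdha6 and from 0.328 to 0.114 for Pcdhga10. Over the 9214 genes at 10 CPM or more in both classes, r had a median of 0.525 and quartiles of 0.318 and 0.697. Pcdh17 had r = 0.920 and rho = 0.901 (permutation test, adjusted p = 2.54e-05 and 2.36e-05, from a raw p of 1e-05, the smallest the resamples can give), and r = 0.897 without the 2 animals farthest from the median. Pcdh1 (r = 0.919), Pcdhgc4 (r = 0.861) and Cdh4 (r = 0.771) were next. The 2 classes of an animal share its dissection, library and depth, and the part of each in these relations was not tested.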

How the data were processed

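Single-nucleus libraries of 40 animals were analysed from the deposited raw UMI counts per gene and barcode, which the authors made with Cell Ranger 3.1.0, per the submitters' processing notes. Genome build, annotation release and whether intronic reads were counted are not given in the sources used here. Barcodes under 500 UMIs (6375) and those in which 13 mitochondrial genes held over 5% of UMIs (2148) were left out, and 8004 barcodes with the highest doublet scores in their library (4.30%) were removed. Of 164425 barcode sequences, 19903 (12.1%) occurred in more than 1 library.

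Counts were scaled to 10000 per nucleus. The 2000 variable genes, without the members (of which 15 would have been among them), gave 30 principal components, clustered over 15 neighbours at a resolution of 1 (scikit-learn 1.9.0, igraph 0.11.9, Python 3.11.15, scipy 1.17.1). Clusters were named from 18 marker lists, with at least 3 markers needed, and 10.0% of nuclei stayed unnamed. Counts were summed per animal and class or cluster with at least 20 nuclei. A class needed 6 such animals in each group and a cluster 10 animals.

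Tests used edgeR 4.0.16 (quasi-likelihood, TMM factors, its filter on low counts, R 4.3.3) with Benjamini-Hochberg adjustment over all genes. DESeq2 1.42.0 and limma 3.58.1 served as alternatives. Of the edgeR comparisons, mate minus peer in D1 and D1 minus D2 were checked on simulated counts without an animal effect, the others not. At folds of 1.5 and 2, 6.4% and 6.7% of calls were false for the former and 3% and 4.4% for the latter. The edgeR and DESeq2 tests were applied in the same way to sums over all nuclei. The SE beside each log2 difference is that difference's absolute value divided by the square root of the quasi-likelihood F statistic, not a separate estimate. The D1 to D2 correlations used 100000 permutations, and the SD of levels log2(CPM + 1). Intervals and limits from 0 counts use 3 counts and cover counting error only.

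Members and gene lists were chosen with earlier results of these data known. Named were up to 3 called members per class and, over its clusters, per class with the largest fold change (in classes at 10 CPM or more), up to 6 with the lowest p in the spiny comparisons, and 3 with the lowest p per comparison of groups, with Pcdh11x and Pcdh19 always named for sex. Between animals, the 5 members with the largest SD were named. Other members in the text were chosen after their values were seen. Of the 61 names, 36 matched symbols of the RefSeq table, and no sequences are printed.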

Additional observations from a re-analysis of the deposited data

Results flagged for a closer look

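Single animals stood apart from their group in 4 of 79 sets of 4 to 10 animals searched (5.06%), and about 5% do so by chance. Sets of 11 animals, as both mate groups formed over all nuclei and in most classes, were outside this search. Pcdh19 in cholinergic interneuron-like nuclei was 251.6 CPM in male mate 9, against 159.8 CPM in the next of 6 males with a mate and a group median of 154.7, from 27 nuclei. Pcdh9 in astrocyte-like nuclei was 151.5 CPM in female peer 2, against 124 CPM in the next of 8 females with a peer, from 385 nuclei. Cdh9 over all nuclei was 247.4 CPM in male peer 1, the animal with 1767 nuclei, against 218.2 CPM in the next of 10 males with a peer. Cdh26 in astrocyte-like nuclei was 481.4 CPM in male peer 9, against 311 CPM in the next of 10 males with a peer and a median of 269.2, from 457 nuclei.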

How the results depend on the processing

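Counts of called members moved with the demand on size. With the adjusted p alone, 228 in place of 126 pairs of a member and a class, 127 in place of 34 pairs of a member and a cluster, 19 in place of 3 members between D1 and D2 and 33 in place of 10 between eccentric and both were called. Without the filter on low counts, 16 in place of 10 members were called between eccentric and both. The spread between animals and the D1 to D2 correlations were not recomputed without male mate 2. Under the other alternatives (scaling by totals alone, limma or DESeq2, doublets kept, at least 50 nuclei, without male mate 2, members allowed in clustering) the class count lay between 99 and 131, and the counts between groups were 0 under each alternative run.

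Named members were mostly chosen for large fold changes or low p, and those between groups were all uncalled. Their stability therefore does not describe calls near the threshold. For the 85 named members with their class or cluster, 509 of 512 values under the alternatives kept their direction and side of the threshold. The other 3 were sex differences of Pcdh19 near 0 that changed sign: in somatostatin-like nuclei from -0.0272 to 0.0566 with members allowed in clustering, and over all nuclei from -0.00506 to 0.00139 when scaled by totals and to 0.00356 with doublets kept. In 19 cases an alternative gave no value, mostly because cholinergic-like, endothelial-like, immature neuron-like nuclei or cluster 27 had too few animals with 50 nuclei. Without male mate 2 the cholinergic-like class fell below 6 animals in a group and was not tested.

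No paired analysis was run, because the replicate numbers follow accession order and the labels name no partners. Neighbouring numbers in the labels share a pairing type in a regular order, but the labels do not say that they mark partners, and they were not used as blocks. The number of members compared between groups differed by class: 3 members passed the filter in microglia-like and 6 in endothelial-like nuclei, against 50 in glutamate-like nuclei.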

Other observations

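Cluster 25 of the D1 spiny-like class is led by the immediate early genes Fosb and Npas4, and Pcdh8 is known as a protocadherin induced by neuronal activity. Pcdh8 averaged 3.35 ± 5.45 CPM there (SD, n = 25, 11 UMIs), against 3.83 ± 2.82 CPM in cluster 1 (n = 40) and 3.13 ± 3.93 CPM in cluster 9 (n = 39), and was too sparse in the class to test. Of the 33 members tested in cluster 25 none was called higher, beside 0.412% of all pairs of a gene and a D1 cluster, so this does not set the members apart. The lowest log2 difference was that of Pcdh19, -0.90 (SE 0.22; edgeR, Benjamini-Hochberg adjusted p = 0.00138), at 13.2 ± 9.73 CPM (SD, n = 25).

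In microglia-like nuclei, 3 members were tested between groups, and 2 of them had an unadjusted p under 0.05 for mate minus peer, beside 204 of 2507 genes in that class. Without male mate 2 this held for 1, Pcdh10 (unadjusted p = 0.0173 in edgeR's quasi-likelihood test, and 0.0807 for Pcdh17). Pcdh10 averaged 159 ± 171 CPM with a mate (n = 22) and 71.1 ± 82.7 CPM with a peer (n = 17; errors are SD), a log2 difference of 1.10 (SE 0.40; edgeR, Benjamini-Hochberg adjusted p = 0.5684), and its highest animal was male mate 2 at 819 CPM. Pcdh17 averaged 128 ± 146 CPM (n = 22) and 62.5 ± 74.4 CPM (n = 17; errors are SD), a log2 difference of 0.98 (SE 0.48; edgeR adjusted p = 0.593), with male mate 2 highest at 578 CPM. Without male mate 2 the differences were 0.92 (SE 0.37; edgeR adjusted p = 0.684) for Pcdh10 and 0.82 (SE 0.46; edgeR adjusted p = 0.728) for Pcdh17. Both genes are abundant in the spiny-like classes, and the part of RNA from other nuclei was not tested. Both genes were chosen here after their values were seen.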
